A study of Mus musculus with 33 samples.

Results

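AP-1 subunits and immediate early transcription factors were followed through the hepatic RNA of 33 libraries. The set holds 10 genes, Jun, Junb, Jund, Fos, Fosl2, Atf3, Egr1, Klf6, Myc and Ier3, out of 25988 genes in the count table, and its members were picked by name and matched by their Ensembl identifiers. They were picked with earlier results of these data in view, and which comparison led to the choice is not recorded. Their values are therefore given as a description, and a member that passes a test here is not independent evidence. Of the 10 members, 9 passed the filter on low counts and were tested. Myc did not pass it.

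The study lowered hepatic ChREBP, the glucose-sensing transcription factor of glycolytic and lipogenic genes, in mice that model GSD Ia, a glycogen storage disease in which loss of G6pc blocks glucose output and lets glucose-6-phosphate build up in hepatocytes. RNA was read by 3' QuantSeq, which counts tags near the 3' end of each transcript. All mice were males on a C57BL/6J background, 13 to 18 weeks old at AAV injection and nonfasted when the livers were collected. All carried floxed G6pc alleles and received an AAV with a short hairpin RNA and then tamoxifen. The L-G6pc-/- mice also carried a tamoxifen-inducible Cre under the serum albumin promoter, so G6pc is deleted in hepatocytes and kept in the other cells of the liver, while L-G6pc+/+ mice were littermates without Cre. The hairpin was a scrambled control (shSCR) or was directed against ChREBP (shChREBP) and was driven by the U6 promoter, which is not limited to hepatocytes. Tamoxifen was given on 5 days, starting 11 or 12 days after the AAV, and livers were collected 10 days after the last dose. The groups shSCR/L-G6pc+/+ and shSCR/L-G6pc-/- held 8 libraries each, shChREBP/L-G6pc+/+ also held 8 and shChREBP/L-G6pc-/- held 9, numbered s1 to s33 as in the labels. Whether the libraries come from separate mice is not given in the labels, so p-values measure the spread between libraries.

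Levels are given as CPM, counts scaled with TMM to a common library total. Total counts per library ran from 1497843 to 3546852, with a median of 2141043. Mlxipl, which encodes ChREBP itself, was lower with shChREBP in both genotypes (log2 fold changes -0.55 and -0.57, adjusted p = 0.0129 and 0.00417 from edgeR), and Pklr, the liver pyruvate kinase gene that ChREBP activates, was higher in shSCR/L-G6pc-/- than in shSCR/L-G6pc+/+ livers (1.35, edgeR adjusted p = 8.68e-07). For Pklr, 6 of the 9 shChREBP/L-G6pc-/- libraries lay below the lowest shSCR/L-G6pc-/- library. All 9 lay above the shSCR/L-G6pc+/+ median, and 6 of the 9 above the highest library of that group. Of the 8 shChREBP/L-G6pc+/+ libraries, 5 lay below the lowest shSCR/L-G6pc+/+ library. The sources used here do not say which stretch of G6pc is deleted, so its 3' tags do not check the genotype. These tags were not lower in shSCR/L-G6pc-/- livers. Of the 8 libraries there, 6 lay above the shSCR/L-G6pc+/+ median, 3 above its highest library and 0 below its lowest. The 12 hepatocyte markers were detected in every group, whereas none of the 11 lymphocyte markers and 1 of the 8 cholangiocyte markers had enough counts to be tested. Over all genes, the libraries s29, s30, s32 and s33 of the shChREBP/L-G6pc-/- group lay apart on the first principal component, at 26.8 to 35.6. No other library exceeded 21.2, and the calls that rest on these 4 are given with and without them. That component held 14.7% of the variation and differed by hairpin. It ran from -24.0 to -0.98 in shSCR/L-G6pc+/+, from -8.56 to 21.2 in shChREBP/L-G6pc+/+ and from -29.1 to 5.09 in shSCR/L-G6pc-/- livers. Leaving out the 4 takes away libraries at the shChREBP end of that axis, and fewer libraries stay. A call lost without them is therefore no separate check of that call. Scaling by library size alone moved the median of all genes by 0.11 on the log2 scale for shChREBP in L-G6pc-/- livers, and 75.8% of the genes called there were then higher, against 44.0% with TMM scaling.

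AP-1 is a dimer of basic leucine zipper proteins, in which a JUN family subunit pairs with another JUN, a FOS or an ATF subunit and binds short palindromic DNA sites. Many of the genes that encode these subunits are immediate early genes, whose transcription rises within minutes of a growth factor, cytokine or stress signal, without new protein synthesis, and falls again because the messenger RNAs are short-lived. In liver they are known for their rapid induction after partial hepatectomy and injury, and JUN is needed for normal hepatocyte proliferation during regeneration.

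The promoters of Fos, Jun, Junb, Atf3 and Klf6 are shown because Fos, Jun, Junb and Atf3 moved together between libraries of one group, as described further on, while Klf6 did not move with them. Each line gives the 200 bases just upstream of the RefSeq transcription start on GRCm38.p6, read 5' to 3' on the strand of the gene, with capitals marking the searched motifs that are spelled out after the sequences. The windows are chr12:85473690-85473889 on the plus strand, chr4:95052223-95052422 on the minus strand, chr8:84978749-84978948 on the minus strand, chr1:191183334-191183533 on the minus strand and chr13:5861289-5861488 on the plus strand.
Fos: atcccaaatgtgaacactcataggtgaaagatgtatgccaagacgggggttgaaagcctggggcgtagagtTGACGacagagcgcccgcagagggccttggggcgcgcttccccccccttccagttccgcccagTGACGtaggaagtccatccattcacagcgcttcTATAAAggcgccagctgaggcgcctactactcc
Jun: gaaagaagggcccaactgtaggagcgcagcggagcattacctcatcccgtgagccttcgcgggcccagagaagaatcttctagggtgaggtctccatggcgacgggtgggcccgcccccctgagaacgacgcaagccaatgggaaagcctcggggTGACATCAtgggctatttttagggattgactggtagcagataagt
Junb: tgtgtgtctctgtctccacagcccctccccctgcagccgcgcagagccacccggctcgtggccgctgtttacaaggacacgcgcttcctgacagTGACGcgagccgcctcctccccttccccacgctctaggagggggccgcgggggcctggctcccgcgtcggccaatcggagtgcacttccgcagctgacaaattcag
Atf3: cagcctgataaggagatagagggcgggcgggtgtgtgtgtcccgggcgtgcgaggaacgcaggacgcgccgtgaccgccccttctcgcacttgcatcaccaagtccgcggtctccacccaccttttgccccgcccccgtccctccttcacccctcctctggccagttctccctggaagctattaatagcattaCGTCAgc
Klf6: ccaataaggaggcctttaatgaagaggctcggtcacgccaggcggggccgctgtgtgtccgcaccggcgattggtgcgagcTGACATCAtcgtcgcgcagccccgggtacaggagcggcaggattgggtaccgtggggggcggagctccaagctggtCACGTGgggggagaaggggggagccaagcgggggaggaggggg

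Letters were searched on both strands over the 250 bases before the start, and the reference table held such a window for 8 of the 10 members. Egr1 and Myc had no window and were not searched for any motif. TGACATCA, the variant AP-1 site known from the Jun promoter, began 45 bases before the Jun start and 119 bases before the Klf6 start, and 2.93% of the 32851 promoters searched held it. TGACG, the core of the cAMP response element, was found in the windows of Fos (129 and 66 bases before the start), Junb (106 bases) and Atf3 (7 bases, as CGTCA), against 17.8% of all promoters. The full response element TGACGTCA, which contains TGACG, was in none of the 8 windows and in 1.55% of all promoters, and the classical AP-1 site TGACTCA was in none of the 8 and in 4.46% of all. The CArG box of the serum response factor was likewise in none of the 8 windows and in 1.47% of all promoters. Klf6 held the E-box CACGTG 43 bases before its start (6.02% of all promoters) and Fos the TATA box TATAAA 33 bases before its start (12.4% of all promoters), and the GC box GGGCGG, not capitalised, was in 6 of the 8 windows against 32.7% of all. These matches describe letters in a window, not bound sites, and a motif missing from a window may lie elsewhere. The RefSeq starts also differ from some gene starts given below. The Jund window ends at 70697738, ahead of the gene start at 70698949. The Fosl2 window begins at 32136272, inside a gene that starts at 32135801. The printed Atf3 window, 191183334 to 191183533, lies inside a minus-strand gene that starts at 191218039. It is therefore upstream of a RefSeq start within the gene and not of the gene start given below.

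Klf6 was higher in shChREBP/L-G6pc-/- livers than in shSCR livers of either genotype, Egr1 was lower in shChREBP/L-G6pc-/- than in shSCR/L-G6pc+/+ livers, and Jund was higher with shChREBP in L-G6pc+/+ livers. Between shSCR/L-G6pc-/- and shSCR/L-G6pc+/+ livers, none of the 9 tested members passed the edgeR test, where 3.23% of all 10179 genes did. Fos, Atf3 and Egr1 had an unadjusted p under 0.05 there, all 3 with a negative log2 fold change, and DESeq2 and limma also called 0 members. With shChREBP in L-G6pc+/+ livers 1 of the 9 members was called (Jund), where 5.39% of all genes were called, and with shChREBP in L-G6pc-/- livers 1 of the 9 (Klf6), where 7.56% were. Between shChREBP/L-G6pc-/- and shSCR/L-G6pc+/+ livers 2 of the 9 were called (Klf6 and Egr1), where 13.2% of all genes were. The shChREBP effect itself differed between genotypes for 0 of the 9 members and for 0.0786% of all genes. Klf6 and Atf3 had an unadjusted p under 0.05 in that test, and DESeq2 and limma called 0 members. The median log2 fold changes of the 9 members were -0.27, 0.22, 0.19 and -0.22 in the order of these 4 comparisons and 0.12 for the difference between genotypes, beside medians over all genes between -0.01 and 0.03. Several of these comparisons use the same shSCR libraries, so their values are not independent of each other.

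**Figure D1:**
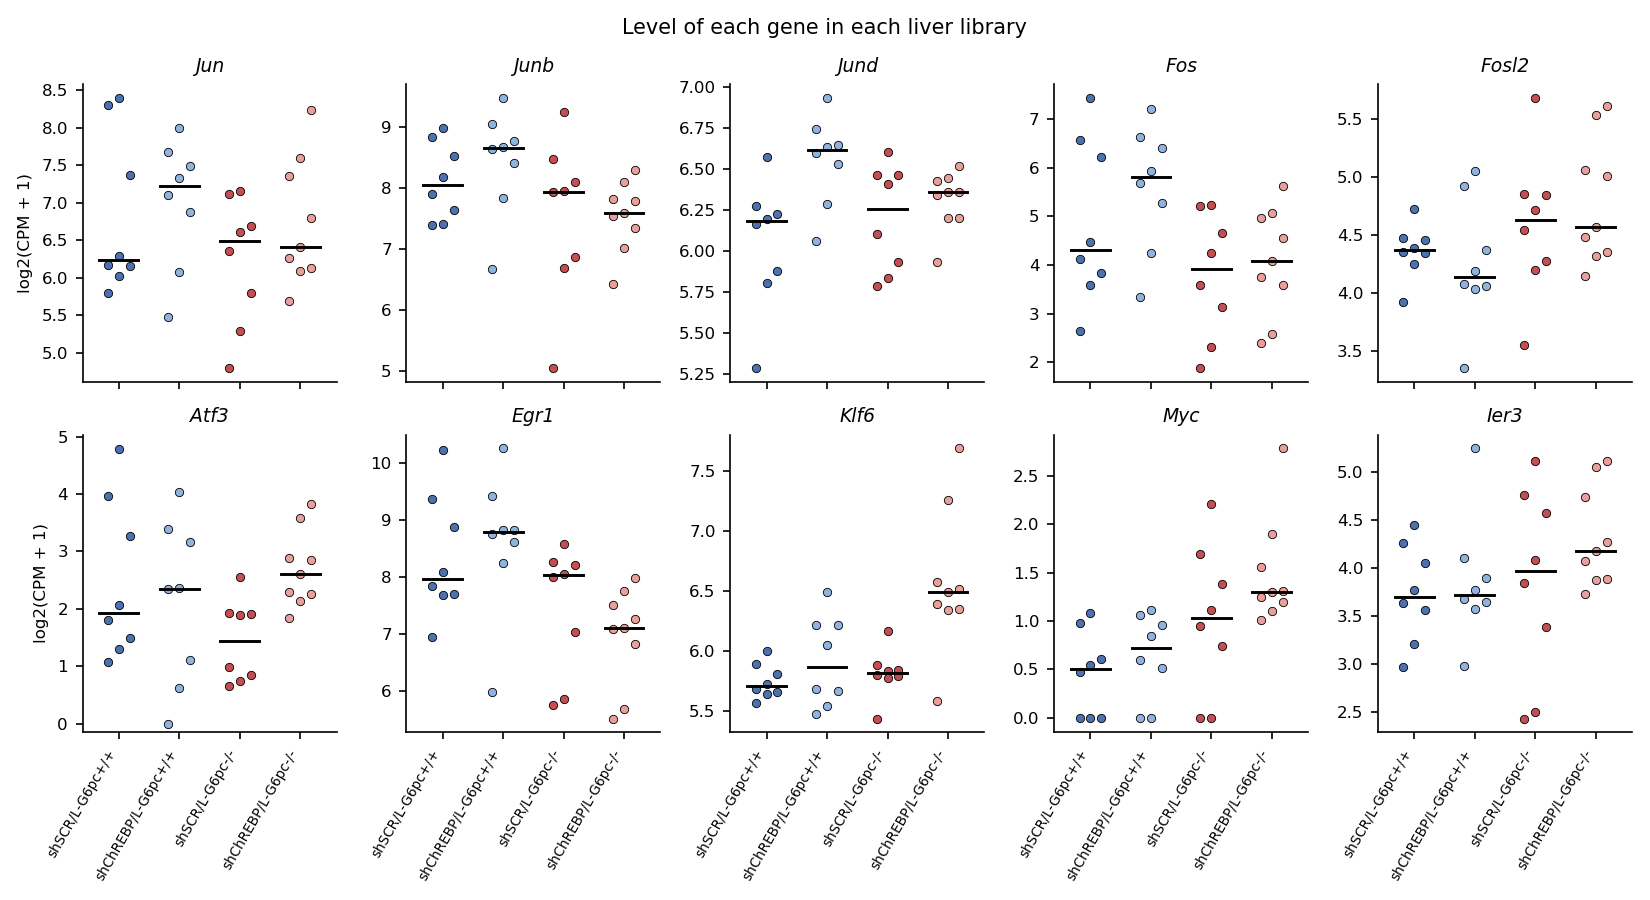
Level of each of the 10 members in each of the 33 libraries, as log2(CPM + 1) on the vertical axis, by group, with points for libraries and a bar for the group median. Klf6 lies between 42.4 and 70.9 CPM in both shSCR groups and reaches 205 CPM in shChREBP/L-G6pc-/- livers, while Fos runs from 5.21 to 172 CPM within shSCR/L-G6pc+/+ livers alone.

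The JUN family supplies the subunits that every AP-1 dimer of the JUN-FOS type contains. Jun, the founding member and the main substrate of JNK, spans chromosome 4 of GRCm38 from 95049034 to 95052222 on the minus strand. Its lowest, median and highest levels were 54.3, 74.1 and 336 CPM in shSCR/L-G6pc+/+ livers, 43.6, 148 and 254 CPM in shChREBP/L-G6pc+/+ livers, 26.6, 88.9 and 142 CPM in shSCR/L-G6pc-/- livers and 50.5, 84.2 and 299 CPM in shChREBP/L-G6pc-/- livers. The ranges overlapped in every comparison, and the high end of each group came from a few libraries. The log2 fold change between the shSCR groups was -0.76 (standard error (SE) 0.41, adjusted p = 0.392 from edgeR), and the shChREBP effect was 0.01 (SE 0.40, adjusted p = 0.990) in L-G6pc+/+ and 0.53 (SE 0.40, adjusted p = 0.457) in L-G6pc-/- livers. Single libraries moved these values: without s6 the first was -0.45 and the second 0.32, without s15 the second was -0.15, and without s29 the third was 0.25. The antisense transcript Junos overlaps Jun from 95051534 to 95052222 and was counted at 0.505 to 8.84 CPM. The sources do not say whether counting used the strand, so reads in that overlap cannot be told apart.

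Junb, which is induced with the early wave and can oppose JUN at some promoters, lies on chromosome 8 from 84974484 to 84978718 on the minus strand. Medians were 264 and 404 CPM for shSCR and shChREBP in L-G6pc+/+ livers and 245 and 192 CPM for shSCR and shChREBP in L-G6pc-/- livers, and single libraries ran from 31.97 CPM (s21) to 713 CPM (s12). All 4 ranges overlapped and no comparison passed, with log2 fold changes of -0.27 (adjusted p = 0.801 from edgeR) between the shSCR groups and -0.59 (adjusted p = 0.293) between shChREBP/L-G6pc-/- and shSCR/L-G6pc+/+ livers. The shChREBP effect on Junb was 0.40 (SE 0.36, adjusted p = 0.551) in L-G6pc+/+ and -0.32 (SE 0.35, adjusted p = 0.644) in L-G6pc-/- livers, and the difference between these effects was -0.72 (SE 0.50, adjusted p = 0.593). Without s23 alone the effect on Junb in L-G6pc-/- livers was 0.02, the difference between the effects -0.38 and the value between the shSCR groups -0.61, without s21 that last value was -0.10, and without s12 the effect in L-G6pc+/+ livers was 0.22. Junb ends within Prdx2 of the other strand, from 84974484 to 84974834, where both genes have their 3' ends, and Prdx2 was counted at 109 to 197 CPM. Reads from that stretch are uncertain for the same reason as for Jun.

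Jund, the family member that resting cells keep at a steady level, lies on chromosome 8 from 70698949 to 70700616 on the plus strand. It was measured at 37.9, 71.5 and 94.4 CPM (lowest, median and highest) in shSCR/L-G6pc+/+ livers and at 65.6, 97.0 and 121 CPM in shChREBP/L-G6pc+/+ livers. In 5 of the 8 shChREBP/L-G6pc+/+ libraries Jund lay above the highest shSCR/L-G6pc+/+ library, and the ranges overlapped. The mean was 67.3 ± 16.9 CPM (SD, n = 8) with the scrambled hairpin and 94.4 ± 17.1 CPM (SD, n = 8) with shChREBP, and the log2 fold change was 0.48 (SE 0.14, adjusted p = 0.0377 from edgeR). The call was close to the threshold and was lost without any one of the libraries s2, s3, s5, s9, s11, s13 and s14, with adjusted p from 0.0528 to 0.0843 and log2 fold changes from 0.40 to 0.48. It was also lost without the low-count filter (adjusted p = 0.0629), in a fit of only these groups (adjusted p = 0.0529) and without s9 and s13 together (0.41, adjusted p = 0.108). In L-G6pc-/- livers Jund ran from 54.1 to 96.3 CPM with shSCR and from 59.95 to 90.8 CPM with shChREBP, so the ranges lay almost on top of each other. The shChREBP effect there was 0.09 (SE 0.14, adjusted p = 0.762; 0.03 without s22 and 0.15 without s19), and the difference between genotypes was -0.39 (SE 0.20, adjusted p = 0.418 from edgeR). Jund overlaps Gm11175 of the other strand, for which 1 of the 33 libraries held a count.

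FOS family proteins cannot pair with themselves and form AP-1 with a JUN partner. Fos, on chromosome 12 from 85473890 to 85477273 on the plus strand, had lowest, median and highest levels of 5.21, 18.8 and 172 CPM in shSCR/L-G6pc+/+ livers, 9.20, 55.6 and 147 CPM in shChREBP/L-G6pc+/+ livers, 2.66, 14.6 and 36.5 CPM in shSCR/L-G6pc-/- livers and 4.28, 15.9 and 48.4 CPM in shChREBP/L-G6pc-/- livers. In 3 of the 8 shSCR/L-G6pc+/+ libraries Fos lay above all shSCR/L-G6pc-/- libraries, and in 2 of the 8 shSCR/L-G6pc-/- libraries below all shSCR/L-G6pc+/+ libraries. The log2 fold change between these groups was -1.51 (SE 0.59, unadjusted p = 0.0145 from edgeR), which missed the adjusted threshold (adjusted p = 0.184), and that between shChREBP/L-G6pc-/- and shSCR/L-G6pc+/+ livers was -1.34 (SE 0.55, adjusted p = 0.111). One library weighed most on both: without s7, the highest of the shSCR/L-G6pc+/+ group, they were -0.93 and -0.75. The shChREBP effect on Fos was 0.33 (SE 0.53, adjusted p = 0.762) in L-G6pc+/+ and 0.18 (SE 0.61, adjusted p = 0.901) in L-G6pc-/- livers, with errors that span both directions. Leaving out one library took the first from 0.03 (without s15) to 0.91 (without s7) and the second from -0.09 (without s31) to 0.43 (without s23).

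Fosl2, which encodes the FOS relative FRA-2 and lies on chromosome 5 from 32135801 to 32157842 on the plus strand, was steadier. Its medians were 19.7 CPM with shSCR and 16.6 CPM with shChREBP in L-G6pc+/+ livers and 23.8 and 22.7 CPM in L-G6pc-/- livers, with single libraries from 9.20 CPM (s9) to 50.3 CPM (s24). In 4 of the 9 shChREBP/L-G6pc-/- libraries Fosl2 lay above the highest shSCR/L-G6pc+/+ library, and in none below the lowest. The log2 fold change there was 0.53 (SE 0.23, unadjusted p = 0.0297, adjusted p = 0.141 from edgeR). Fosl2 did not pass in the remaining comparisons, where its log2 fold changes lay between -0.02 and 0.34. Without s24 the value of Fosl2 between the shSCR groups fell from 0.34 to 0.13, and the shChREBP effect in L-G6pc+/+ livers ran from -0.17 (without s15) to 0.07 (without s9).

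Atf3, a stress-induced partner of JUN that often represses its own and other early genes, lies on chromosome 1 from 191170296 to 191218039 on the minus strand. It was among the members with the fewest counts, 0 to 53 per library. Lowest, median and highest levels were 1.12, 2.84 and 26.7 CPM in shSCR/L-G6pc+/+ livers, 0, 4.09 and 15.4 CPM in shChREBP/L-G6pc+/+ livers, 0.584, 1.85 and 4.88 CPM in shSCR/L-G6pc-/- livers and 2.57, 5.06 and 13.2 CPM in shChREBP/L-G6pc-/- livers. All 9 shChREBP/L-G6pc-/- libraries lay above the median of the shSCR/L-G6pc-/- group, and 5 of the 9 above its highest library. The log2 fold change of 1.55 (SE 0.64, unadjusted p = 0.0211) missed the threshold in the fit of all 4 groups (adjusted p = 0.135 from edgeR) and passed it in a fit of only these groups (1.55, adjusted p = 0.0230). The 2 highest of these libraries, s29 and s32, are among the 4 that lie apart, without which Atf3 was at 1.05 (adjusted p = 0.661). Between the shSCR groups the log2 fold change was -1.80 (SE 0.65, unadjusted p = 0.00851, adjusted p = 0.135), with 4 of the 8 shSCR/L-G6pc-/- libraries below the lowest shSCR/L-G6pc+/+ library, and without s7 it was -1.19. The shChREBP effect in L-G6pc+/+ livers was -0.44 (SE 0.56, adjusted p = 0.695), and the difference between genotypes was 1.99 (SE 0.85, unadjusted p = 0.0253, adjusted p = 0.337 from edgeR). Without s7 these values were 0.17, in the other direction, and 1.38.

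Egr1 encodes a zinc finger factor that serum and growth factor signals switch on beside Fos, and lies on chromosome 18 from 34859823 to 34864984 on the plus strand. Its lowest, median and highest levels were 123, 250 and 1197 CPM in shSCR/L-G6pc+/+ livers, 62.7, 442 and 1220 CPM in shChREBP/L-G6pc+/+ livers, 52.9, 260 and 380 CPM in shSCR/L-G6pc-/- livers and 44.9, 137 and 252 CPM in shChREBP/L-G6pc-/- livers. In 4 of the 8 shSCR/L-G6pc+/+ libraries Egr1 lay above every shChREBP/L-G6pc-/- library, and 8 of the 9 shChREBP/L-G6pc-/- libraries lay below the shSCR/L-G6pc+/+ median. The mean was 421 ± 359 CPM (SD, n = 8) in the first of these groups and 142 ± 68.6 CPM (SD, n = 9) in the second, and the log2 fold change was -1.56 (SE 0.44, adjusted p = 0.0131 from edgeR). The call was lost without s7, the library at 1197 CPM (-1.12, adjusted p = 0.0728), and without the 4 libraries that lie apart, where the value was -1.66 (adjusted p = 0.0863 from edgeR). No other comparison of Egr1 between groups passed. Egr1 had a log2 fold change of -0.95 (SE 0.45, adjusted p = 0.306) between the shSCR groups, 0.25 (SE 0.44, adjusted p = 0.788) with shChREBP in L-G6pc+/+ livers and -0.62 (SE 0.43, adjusted p = 0.429 from edgeR) with shChREBP in L-G6pc-/- livers. Without s7 the first of these was -0.50 and the second 0.69, and without s13 the second was -0.09. In the last of the 3, 5 of the 8 shSCR/L-G6pc-/- libraries lay above every shChREBP/L-G6pc-/- library.

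Klf6, a Krüppel-like zinc finger factor that is induced in injured liver and is known in both hepatocytes and stellate cells, lies on chromosome 13 from 5861482 to 5870394 on the plus strand. Lowest, median and highest levels were 46.5, 51.3 and 63.0 CPM in shSCR/L-G6pc+/+ livers, 43.5, 58.0 and 89.0 CPM in shChREBP/L-G6pc+/+ livers, 42.4, 55.6 and 70.9 CPM in shSCR/L-G6pc-/- livers and 46.9, 89.3 and 205 CPM in shChREBP/L-G6pc-/- livers. In 8 of the 9 shChREBP/L-G6pc-/- libraries Klf6 lay above every shSCR library of both genotypes, and the exception, s31, was at 46.9 CPM. The highest were s30 at 205 CPM and s29 at 152 CPM, and the other 6 lay close together, between 80.1 CPM (s25) and 94.5 CPM (s27). Of the 8 shChREBP/L-G6pc+/+ libraries, 4 lay above the highest shSCR/L-G6pc+/+ library and 2 below its lowest. Among them s11, s15 and s16, at 73.6, 89.0 and 73.4 CPM, also lay above every shSCR library of both genotypes. With shSCR the L-G6pc-/- mean was 55.9 ± 7.75 CPM (SD, n = 8), and with shChREBP it was 103 ± 47.2 CPM (SD, n = 9).

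The shChREBP effect on Klf6 in L-G6pc-/- livers was a log2 fold change of 0.88 (SE 0.18, adjusted p = 0.00188 from edgeR), or 1.84-fold. Against shSCR/L-G6pc+/+ livers, at 53.0 ± 5.54 CPM (SD, n = 8), Klf6 in shChREBP/L-G6pc-/- livers was higher by 0.95 on the log2 scale (SE 0.18, adjusted p = 0.000343). Both calls held without any single library, with lowest values of 0.68 and 0.76 without s30. Without s29, s30, s32 and s33 the first was 0.51 and missed the threshold (adjusted p = 0.117), where 1.02% of all genes were called, and the second was 0.58 and passed (adjusted p = 0.0281 from edgeR), where 3.09% were called. Of the 5 libraries left, 4 still lay above every shSCR library. Klf6 had a log2 fold change of 0.08 (SE 0.19, adjusted p = 0.902) between the shSCR groups. The shChREBP effect in L-G6pc+/+ livers was 0.22 (SE 0.19, adjusted p = 0.541), and it did not pass the test of a difference from the effect in L-G6pc-/- livers (0.66, SE 0.26, unadjusted p = 0.0158, adjusted p = 0.288 from edgeR). That difference was 0.29 (adjusted p = 0.577) without the 4 libraries, and the effect in L-G6pc+/+ livers was 0.12 without s15.

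Some cell type markers were called with shChREBP in L-G6pc-/- livers, where 7.56% of all genes were called. The median log2 fold change of the hepatocyte markers was -0.18 there, -0.23 with shChREBP in L-G6pc+/+ livers and -0.19 between the shSCR groups. For the Kupffer cell and macrophage markers it was 0.38, 0.30 and -0.0008 in the same order. The edgeR test called 2 of the 12 hepatocyte and 0 of the 11 macrophage markers with shChREBP in L-G6pc+/+ livers. Between the shSCR groups it called 1 of the 12 and 0 of the 11. The summed level of the 12 hepatocyte markers ran from 28980 to 40028 CPM in shSCR/L-G6pc-/- and from 19959 to 34959 CPM in shChREBP/L-G6pc-/- livers, with 4 of the 12 called lower (Alb, Ttr, Apoa2 and Fgb). That of the 11 Kupffer cell and macrophage markers ran from 944 to 2267 and from 1503 to 2374 CPM, with 3 of the 11 called higher (C1qa, Clec4f and C1qc). The 4 libraries that lie apart had the 4 lowest hepatocyte marker sums of their group, and the other 5 ran from 28004 to 34959 CPM, while their macrophage marker sums ran from 1503 to 1966 CPM, within the shSCR/L-G6pc-/- range. Without those 4 libraries 0 of the 12 hepatocyte markers and 0 of the 11 macrophage markers were called, with 3 and 4 at an unadjusted p under 0.05. Among the sinusoidal endothelial markers 1 of 9 was called (Pecam1, higher, and not without those 4 libraries), and among the stellate cell (11 tested), neutrophil (3 tested) and erythroid markers (5 tested) 0 were called by edgeR, DESeq2 or limma, with an unadjusted p under 0.05 for 2, 0 and 0. Library s30, with the most Klf6, had the lowest hepatocyte marker sum of its group, and s31, with the least, had a sum of 34924 CPM, close to the highest. The libraries between them did not follow that order. Library s26 had the highest sum, 34959 CPM, with Klf6 at 90.8 CPM. Libraries s32 and s33 had sums of 23495 and 27451 CPM with Klf6 at 89.3 and 80.8 CPM. Over all 33 libraries, with group means subtracted, r was -0.59 and rho -0.31 (adjusted p = 0.171 and 0.433 by permutation). In bulk liver, fewer cells of a type and less RNA per cell cannot be told apart, and the part of these markers in the Klf6 result was not tested.

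Myc, which encodes the growth factor-induced transcription factor of ribosome and cell cycle genes, lies on chromosome 15 from 61985391 to 61990374 on the plus strand and was too sparse for the filter. The libraries held 8 counts in total in shSCR/L-G6pc+/+, 10 in shChREBP/L-G6pc+/+, 21 in shSCR/L-G6pc-/- and 45 in shChREBP/L-G6pc-/- livers, and the most in one library was 16, in s30. Medians were 0.420, 0.654, 1.05 and 1.47 CPM, and 8 of the 9 shChREBP/L-G6pc-/- libraries lay above the highest shSCR/L-G6pc+/+ library. That library, s1, held 3 counts, and s25, s27, s29, s31 and s33 held 3 each as well. These lay above s1 in CPM only through the scaling by library total. When every gene was fitted without the filter, Myc was higher in shChREBP/L-G6pc-/- than in shSCR/L-G6pc+/+ livers (log2 fold change 2.13, SE 0.60, adjusted p = 0.0225 from edgeR), where 4.68% of 25988 genes were called. The call was lost without s30 (1.73, adjusted p = 0.127) and without s29, s30, s32 and s33 (1.56, adjusted p = 0.403), and these fits were added after the counts had been seen. In the unfiltered fit Myc had a log2 fold change of 1.49 (SE 0.66, adjusted p = 0.393) between the shSCR groups and 0.64 (SE 0.52, adjusted p = 0.608) with shChREBP in L-G6pc-/- livers.

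Ier3, on chromosome 17 from 35821684 to 35822923 on the plus strand, encodes a small early response protein that shields cells from death signals. Its medians were 12.05 CPM with shSCR and 12.2 CPM with shChREBP in L-G6pc+/+ livers and 14.7 and 17.1 CPM in L-G6pc-/- livers, and single libraries ran from 4.396 CPM (s18) to 37.1 CPM (s13). All 9 shChREBP/L-G6pc-/- libraries lay above the shSCR/L-G6pc+/+ median, and 3 of the 9 above the highest shSCR/L-G6pc+/+ library. The log2 fold change of 0.63 (SE 0.31, adjusted p = 0.2001 from edgeR) did not pass, nor did the values of 0.32, 0.19 and 0.31 in the other comparisons between groups. These last 3 values were 0.08 without s17, -0.14 without s13 and 0.16 without s18.

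**Figure D2:**
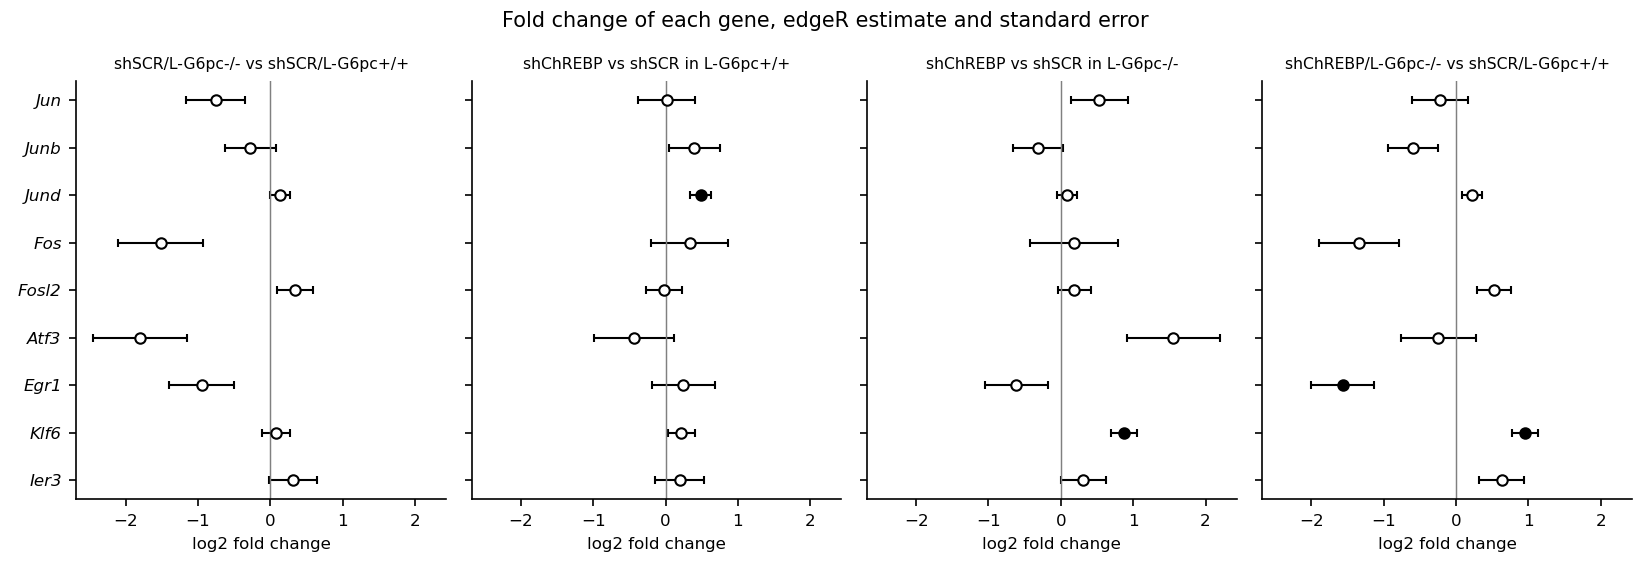
Log2 fold changes of the 9 tested members on the horizontal axis in 4 comparisons, with bars for ± 1 SE and filled points where the adjusted p from edgeR was under 0.05. Klf6 is filled at 0.88 and 0.95, Jund at 0.48 and Egr1 at -1.56, and the values of Fos (-1.51) and Atf3 (-1.80) between the shSCR groups lie far from 0 with wide bars.

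The members differed in how far libraries of one group were spread. The spread is given as the biological coefficient of variation, which is the part of the variation between libraries of a group that counting error does not account for. It was 77.6% for Fos, 77.2% for Atf3, 59.9% for Egr1, 54.5% for Jun and 49.3% for Junb, against a median of 18.2% over all tested genes, and 99.7% of genes lay below Fos. Ier3 was at 42.3% and Fosl2 at 31.1%. Klf6 at 25.1% and Jund at 18.7% lay nearer the middle, with 78.8% and 52.5% of genes below them. The members with the largest log2 fold changes between the shSCR groups were thus also the most variable, and Klf6 and Jund, 2 of the 3 members called in any comparison, were the least variable of the 9. Within groups the SD of Klf6 on the log2 scale was 0.14 in shSCR/L-G6pc+/+, 0.37 in shChREBP/L-G6pc+/+, 0.20 in shSCR/L-G6pc-/- and 0.60 in shChREBP/L-G6pc-/- livers.

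**Figure D3:**
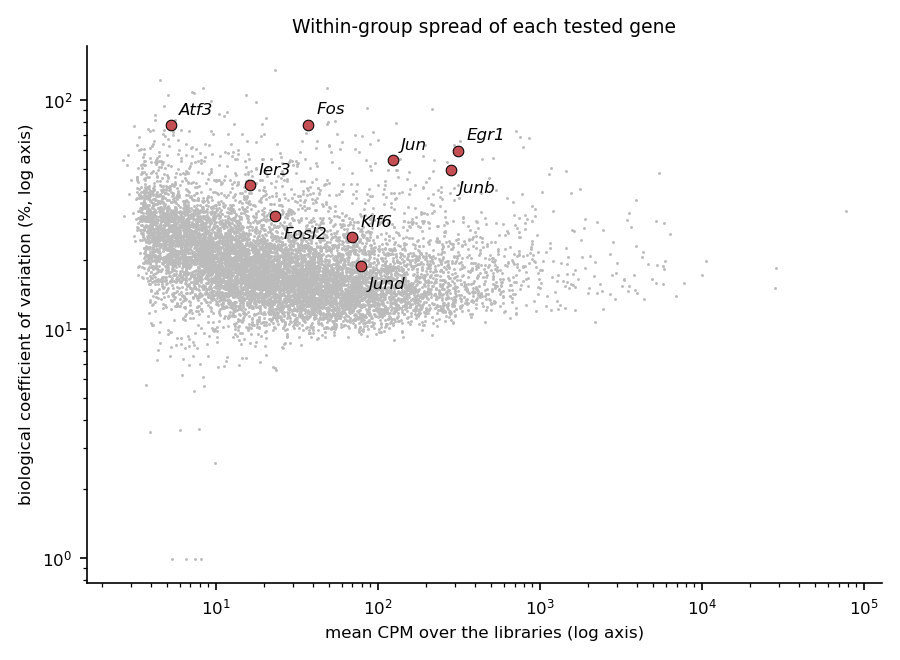
Biological coefficient of variation in percent (vertical axis) against mean level in CPM (horizontal log axis) for all tested genes in grey and the 9 tested members named. Fos, Atf3, Egr1, Jun and Junb lie between 49.3% and 77.6%, above nearly all genes of their level, and Jund at 18.7% lies near the median of 18.2%.

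Libraries high for one of the variable members were high for the others. After subtracting group means from log2 CPM, Jun and Fos had a Pearson's r of 0.88 and a Spearman's rho of 0.90 over the 33 libraries (permutation p = 1e-05 for both, the smallest these permutations can give, adjusted p = 7.2e-05 over 36 pairs). Without the 2 libraries farthest from the median of Jun, s16 and s6, r was 0.88. Within single groups it ran from 0.81 to 0.92. Across the 10 pairs among Jun, Junb, Fos, Atf3 and Egr1, a subset picked after the values were seen, r ran from 0.46 (Junb and Atf3) to 0.88 and all 10 passed the permutation test (adjusted p from 7.2e-05 to 0.0157). Over all 36 pairs of the 9 members 17 passed. Without s29, s30, s32 and s33, r among those 10 pairs ran from 0.47 to 0.89.

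Klf6 stood outside this pattern. Its r with the other 8 members lay between -0.12 and 0.21 and none of the 8 passed (lowest adjusted p = 0.472 by permutation). Without s30 and s31, the libraries farthest from the median of Klf6, r ran from -0.18 (Jund) to 0.43 (Fosl2). Within single groups it ran from -0.67 (Jund) to 0.54 (Fosl2). Jund passed with Jun (r = 0.47, rho = 0.41, permutation p = 0.0111, adjusted p = 0.0266) and with Ier3 (r = 0.48, rho = 0.47, permutation p = 0.00942, adjusted p = 0.0261), but by rho the pair with Jun missed the threshold (adjusted p = 0.0622), and without s2 and s16 the Ier3 value was 0.49. Without s16 and s6 the value of Jund with Jun was 0.34.

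The same libraries carried the high ends. Among the 8 shSCR/L-G6pc+/+ libraries s7 was in the top 2 for 5 of the 5 genes Jun, Junb, Fos, Atf3 and Egr1, and s6 for 4. In shChREBP/L-G6pc+/+ livers s15 was in the top 2 for 5 and s9 in the bottom 2 for 4, and in shSCR/L-G6pc-/- livers s23 was in the top 2 for 4, s21 in the bottom 2 for 5 and s22 for 4. In shChREBP/L-G6pc-/- livers s31 was in the top 2 for 4 and s33 in the bottom 2 for 5. Library s31, so high for these genes, was the lowest of its group for Klf6. Of 108 relations between the 9 members and 12 values of each library (total count, mitochondrial percentage, genes detected, the first principal component and 8 marker sums), 0 passed the permutation test after adjustment and 14 had an unadjusted p under 0.05. The most negative was Klf6 with the hepatocyte marker sum (r = -0.59, rho = -0.31, adjusted p = 0.171 by permutation). Mitochondrial counts made up 5.18% to 7.95% of a library.

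**Figure D4:**
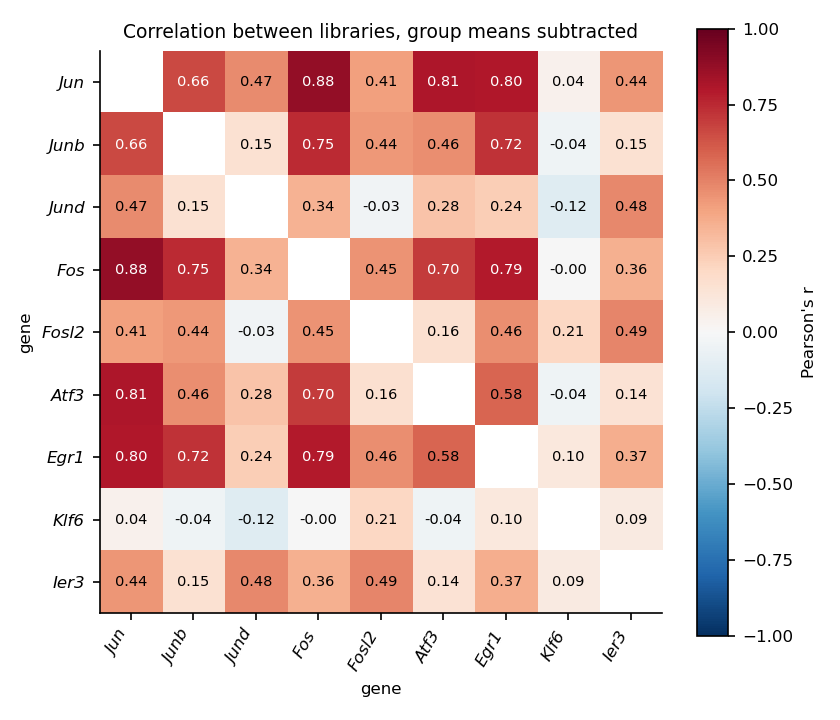
Pearson's r between pairs of the 9 tested members over 33 libraries after subtracting group means, as a colour grid with r written in each cell. Jun, Junb, Fos, Atf3 and Egr1 form a block from 0.46 to 0.88, and the cells of Klf6 lie between -0.12 and 0.21.

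Among 8957 other genes with a mean of at least 5 CPM, the gene whose residuals were most like those of Fos was Ier2 (r = 0.83), followed by Btg2 (0.79) and Ccn1 (0.71). For Jun they were Btg2 (0.78), Hspa8 (0.74) and Zfp36 (0.72), for Junb Zfp36 (0.85), Btg2 (0.78) and Crybg2 (0.76), and for Egr1 Ier2 (0.75), Ppp1r15a (0.71) and Btg2 (0.70). Atf3 was most like Hspa8 (0.75), Btg2 (0.69) and Atg4b (0.68). The genes most like Klf6 were Haus8 (0.75), Arhgef7 (0.68) and Ly6d (0.67). Jund was most like Ap2a2 (0.68), Fosl2 most like Cln8 (0.74) and Ier3 most like Tmcc2 (0.68). These values are over the same 33 libraries for every gene, whose depths differ, and are given as a description.

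Other genes of these pathways were counted in 9 lists with 134 tested genes. Between the shSCR groups 6 of the 134 were called (4.48%), with shChREBP in L-G6pc+/+ livers 6 (4.48%), with shChREBP in L-G6pc-/- livers 8 (5.97%) and between shChREBP/L-G6pc-/- and shSCR/L-G6pc+/+ livers 26 (19.4%). These shares stand beside 3.23%, 5.39%, 7.56% and 13.2% of all genes. Without s29, s30, s32 and s33, 0 of the 8 and 6 of the 26 (Fgf21, Ier2, Klf10, Nr4a2, Sesn2 and Sik1) were still called. The 20 calls of the last comparison that ended kept their direction, and their values stand with each list. For the difference between genotypes 0 of the 134 were called, and 0 by DESeq2 and limma in each list. An unadjusted p under 0.05 in that test was found for 3 of 8 other AP-1 genes, 3 of 33 other immediate early genes, 3 of 26 upstream kinases and regulators, 2 of 11 feedback inhibitors, 1 of 11 AP-1 targets, 1 of 9 genes of the MYC and MAX network, 3 of 20 MYC targets, 0 of 7 KLF genes and 1 of 9 genes of the ATF4 branch.

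Among the other immediate early genes 3 of 33 were higher and 1 of 33 lower in shSCR/L-G6pc-/- than in shSCR/L-G6pc+/+ livers. Nr4a2, an orphan nuclear receptor of the cAMP-induced early wave, was at 2.11, 2.30 and 6.56 CPM (lowest, median and highest) in shSCR/L-G6pc+/+ and at 2.44, 23.3 and 49.7 CPM in shSCR/L-G6pc-/- livers. In 6 of the 8 shSCR/L-G6pc-/- libraries Nr4a2 lay above every shSCR/L-G6pc+/+ library, and its log2 fold change was 2.90 (SE 0.54, adjusted p = 0.000618 from edgeR), which limma-voom did not call (2.43, adjusted p = 0.0701). Klf10, a TGF-beta-inducible Krüppel-like factor, was higher by 1.68 (SE 0.31, adjusted p = 0.000581) and Sik1, a cAMP-induced kinase, by 1.26 (SE 0.35, adjusted p = 0.0364). Ier2, an early gene of the serum response, fell by 1.002 (SE 0.29, adjusted p = 0.0409). The Sik1 call was lost without s1, s2, s3, s4, s5, s8, s19, s22, s23 or s24 (adjusted p from 0.0508 to 0.0923), and the Ier2 call without s4, s6, s7, s8, s17, s18, s20, s21 or s22 (adjusted p from 0.0547 to 0.136) and without s29, s30, s32 and s33 together (-1.01, adjusted p = 0.0516). Of these 4 genes limma-voom called 1, Klf10.

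In shChREBP/L-G6pc-/- against shSCR/L-G6pc+/+ livers the same 4 genes were called in the same directions, among 3 of 33 higher and 2 of 33 lower. Nr4a2 was at 3.38, 13.3 and 44.1 CPM in shChREBP/L-G6pc-/- livers and higher by 2.81 (SE 0.53, adjusted p = 0.00031 from edgeR), Sik1 by 1.63 (SE 0.34, adjusted p = 0.000866) and Klf10 by 0.95 (SE 0.31, adjusted p = 0.0343). Ier2 ran from 29.8 to 142 CPM in shSCR/L-G6pc+/+ and from 15.4 to 31.3 CPM in shChREBP/L-G6pc-/- livers and fell by 1.56 (SE 0.28, adjusted p = 0.000186), and Trib1, a pseudokinase gene, fell by 0.69 (SE 0.21, adjusted p = 0.0219). The Klf10 call was lost without s2, s3, s4, s5, s6, s26, s27 or s32 (adjusted p from 0.0599 to 0.074) and the Trib1 call without s6 or s7 (0.053 to 0.0673) or without s29, s30, s32 and s33 (-0.63, adjusted p = 0.173). With shChREBP in L-G6pc-/- livers 1 of 33 was called, Ier5, an early gene that modulates the heat shock factor (0.68, SE 0.17, adjusted p = 0.0109), and not without s29, s30, s32 and s33 (0.42, adjusted p = 0.351). With shChREBP in L-G6pc+/+ livers 0 of 33 were called by edgeR, DESeq2 or limma, and 3 had an unadjusted p under 0.05.

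**Figure D5:**
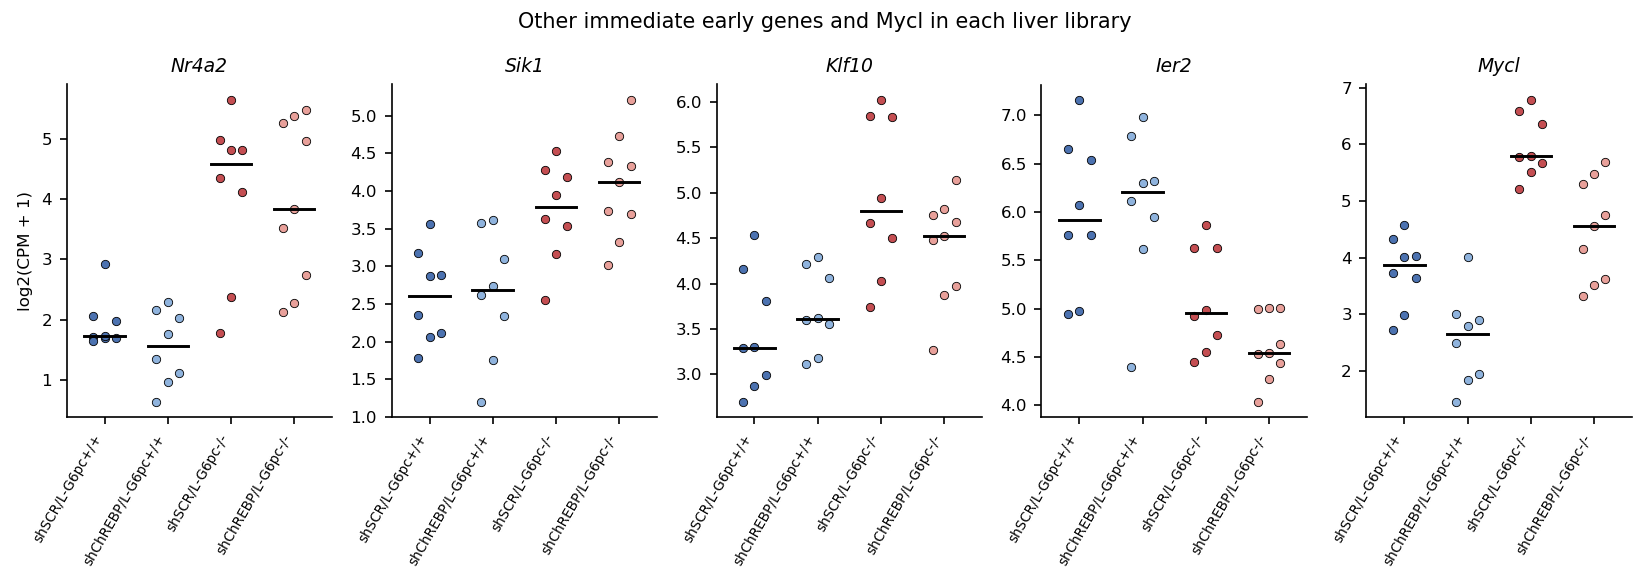
Level of Nr4a2, Sik1, Klf10, Ier2 and Mycl in each of the 33 libraries as log2(CPM + 1) on the vertical axis, by group, with points for libraries and a bar for the group median. Mycl does not overlap between shSCR/L-G6pc+/+ (5.56 to 22.7 CPM) and shSCR/L-G6pc-/- livers (36.1 to 110 CPM), and the highest Ier2 library of shChREBP/L-G6pc-/- livers, at 31.3 CPM, lies near the lowest of shSCR/L-G6pc+/+ livers, at 29.8 CPM.

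In the MYC and MAX network Mycl, the MYC relative L-MYC, was the one called by edgeR between the shSCR groups, 1 of 9, where DESeq2 also called Mxd1, a MAX partner gene (-0.75, adjusted p = 0.0346). Mycl ran from 5.56 to 22.7 CPM in shSCR/L-G6pc+/+, from 1.72 to 15.1 CPM in shChREBP/L-G6pc+/+, from 36.1 to 110 CPM in shSCR/L-G6pc-/- and from 8.98 to 50.8 CPM in shChREBP/L-G6pc-/- livers. The log2 fold change of Mycl was 2.30 (SE 0.33, adjusted p = 1.08e-05 from edgeR) between the shSCR groups, whose ranges did not overlap, and -1.38 (SE 0.30, adjusted p = 0.00275) with shChREBP in L-G6pc-/- livers. The second call was lost without s29, s30, s32 and s33 (-0.91, adjusted p = 0.158). In L-G6pc+/+ livers the shChREBP effect on Mycl was -1.20 (SE 0.41, adjusted p = 0.0765), which missed the threshold with edgeR and limma-voom and passed it with DESeq2 (-1.23, adjusted p = 0.0382) and with limma on the deposited values (-1.33, adjusted p = 0.0257). Mxi1, which encodes a MAX partner that opposes MYC, fell by 0.68 (SE 0.15, adjusted p = 0.00409 from edgeR) with shChREBP in L-G6pc-/- livers and missed the threshold without those 4 libraries (-0.61, adjusted p = 0.0868). Between shChREBP/L-G6pc-/- and shSCR/L-G6pc+/+ livers Mxi1 was the one network gene called by edgeR (-0.61, adjusted p = 0.00506), and it was at -0.54 (adjusted p = 0.0791) without them. Of 20 MYC target genes, 0 were called between the shSCR groups (by DESeq2 and limma 0 as well, and 0 at an unadjusted p under 0.05) and 1 in each shChREBP comparison, Eif4e in L-G6pc+/+ (-0.42, adjusted p = 0.0479) and Ldha in L-G6pc-/- livers (-0.54, adjusted p = 0.00577). Between shChREBP/L-G6pc-/- and shSCR/L-G6pc+/+ livers 2 of 20 were higher, Ccnd2 (0.36, adjusted p = 0.018) and Cdk4 (0.46, adjusted p = 0.0401). The Eif4e call was lost without 18 of the 33 libraries taken one at a time (s2 to s7, s9, s11, s14 to s18, s22, s24, s25, s27 and s31, adjusted p up to 0.107), that of Cdk4 without s3, s4, s6, s7, s8, s26, s29, s30, s32 or s33 (up to 0.109) and that of Ccnd2 without s4 (0.0504). Ldha was at -0.36 (adjusted p = 0.269), Ccnd2 at 0.27 (0.255) and Cdk4 at 0.35 (0.372) without s29, s30, s32 and s33.

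The list of known AP-1 target genes held 20 genes, and 11 had enough counts to be tested. Between shChREBP/L-G6pc-/- and shSCR/L-G6pc+/+ livers 6 of the 11 were called, all 6 higher, where 6.87% of all genes were called higher. The list was chosen with earlier results of these data known, so this share is a description. The median log2 fold change of the 11 was 0.62, beside 0.01 over all genes. Their values ran from -1.15 to 1.82, and 10 of the 11 were positive. The 4 with the smallest p were Ccnd1, which encodes cyclin D1 (1.13, SE 0.25, adjusted p = 0.00168 from edgeR), Lgals3, the galectin-3 gene of macrophages (1.23, SE 0.29, adjusted p = 0.00371), Ccl2, a monocyte chemokine gene (1.82, SE 0.46, adjusted p = 0.00594), and Spp1, the osteopontin gene (0.96, SE 0.27, adjusted p = 0.0132). The others were Cd44 and Vim. Cd44 was lost without s1, s4, s5, s6, s8, s29 or s30 (adjusted p from 0.0517 to 0.0832), and Vim without s1, s3 to s8, s10, s18, s25, s28, s29, s30, s32 or s33 (adjusted p from 0.0502 to 0.106). Without s29, s30, s32 and s33 none of the 6 was called, with Ccnd1 at 0.74, Lgals3 at 0.58, Ccl2 at 1.47, Spp1 at 0.86, Cd44 at 0.45 and Vim at 0.44 (adjusted p from 0.098 to 0.427). Several of these genes are also expressed by macrophages, and 3 of the 11 Kupffer cell and macrophage markers were higher in the same comparison (Clec4f, C1qc and Cd5l), and 0 without those 4 libraries. The part of these markers in the result was not tested. In L-G6pc-/- livers 1 of 11 was called with shChREBP, the metallothionein gene Mt1 (1.17, SE 0.32, adjusted p = 0.0167), and not without those 4 libraries (1.02, adjusted p = 0.211). Between the shSCR groups 0 of 11 were called by edgeR, DESeq2 or limma, and 7 had an unadjusted p under 0.05. In L-G6pc+/+ livers 0 of 11 were called with shChREBP by any of these tools, and 2 had an unadjusted p under 0.05.

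The ATF4 branch of the stress response, in which Atf3 is an ATF4 target, had 2 of 9 genes called higher with shChREBP in L-G6pc-/- livers and 4 of 9 between shChREBP/L-G6pc-/- and shSCR/L-G6pc+/+ livers. Fgf21, a hepatokine gene of fasting and stress, was higher by 1.54 (SE 0.41, adjusted p = 0.0142 from edgeR) and by 2.39 (SE 0.43, adjusted p = 0.000196), and Sesn2, which encodes a stress-induced inhibitor of mTORC1, by 0.67 (SE 0.20, adjusted p = 0.0285) and by 1.21 (SE 0.20, adjusted p = 6.5e-05). Atf5 (0.52, adjusted p = 0.0102) and Trib3 (0.91, adjusted p = 0.032) were called in the second comparison. The first Sesn2 call was lost without s17, s18, s21, s22, s29, s30 or s32 (adjusted p from 0.0515 to 0.0795) and that of Trib3 without s1, s4, s5, s6, s26, s30 or s33 (0.0508 to 0.0799). Without s29, s30, s32 and s33 the calls of the first comparison ended, and Fgf21 (1.30, adjusted p = 0.19) and Sesn2 (0.34, adjusted p = 0.594) kept a positive value. In the second comparison Fgf21 (2.15, adjusted p = 0.00756) and Sesn2 (0.89, adjusted p = 0.0188) passed without them, and Atf5 (0.43, adjusted p = 0.109) and Trib3 (0.78, adjusted p = 0.252) did not. Between the shSCR groups 0 of 9 were called by edgeR or limma and 1 by DESeq2, with 2 at an unadjusted p under 0.05, and with shChREBP in L-G6pc+/+ livers 0 were, by each tool and at an unadjusted p under 0.05.

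The remaining lists held few calls. Of 8 other AP-1 genes, Maf was higher (0.41, SE 0.10, adjusted p = 0.01 from edgeR) and Mafg lower (-0.40, SE 0.11, adjusted p = 0.0236) with shChREBP in L-G6pc+/+ livers, Jdp2, an AP-1 repressor gene, was higher with shChREBP in L-G6pc-/- livers (0.82, SE 0.25, adjusted p = 0.0381) and Mafk was higher in shChREBP/L-G6pc-/- than in shSCR/L-G6pc+/+ livers (1.11, SE 0.32, adjusted p = 0.0153). The Mafg call was lost without s2, s4, s7 or s14 (adjusted p from 0.0544 to 0.0619), the Mafk call without s30 (0.81, adjusted p = 0.072) and the Jdp2 call without s18, s20, s21, s23, s24, s29, s30, s31 or s32 (0.0519 to 0.089). Mafk was at 0.50 (adjusted p = 0.504) and Jdp2 at 0.57 (adjusted p = 0.464) without s29, s30, s32 and s33, and neither passed. Between the shSCR groups 0 of the 8 were called by edgeR, DESeq2 or limma and 0 had an unadjusted p under 0.05.

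Of the 26 upstream kinases and serum response regulators, Rps6ka1, a kinase of the ERK pathway, was the one called between the shSCR groups (0.78, SE 0.18, adjusted p = 0.00671 from edgeR). With shChREBP in L-G6pc+/+ livers the JNK kinase gene Map2k4 was lower (-0.47, SE 0.12, adjusted p = 0.0149) and the SRF coactivator gene Mrtfb higher (0.58, SE 0.15, adjusted p = 0.0167), and both were also called between shChREBP/L-G6pc-/- and shSCR/L-G6pc+/+ livers (-0.39, adjusted p = 0.0145, and 0.43, adjusted p = 0.0393), with Map3k7 (-0.38, adjusted p = 0.00237) and Elk4 (-0.33, adjusted p = 0.0258). These comparisons share the shSCR/L-G6pc+/+ libraries. The last Mrtfb call was lost without s1, s3, s5, s7, s8, s29, s30, s32 or s33 (adjusted p from 0.0533 to 0.106) and the Elk4 call without s4, s8, s29 or s32 (0.0515 to 0.0661). None of these 4 passed in that comparison without s29, s30, s32 and s33, with Map2k4 at -0.37, Mrtfb at 0.15, Map3k7 at -0.24 and Elk4 at -0.17 (adjusted p from 0.149 to 0.6998). With shChREBP in L-G6pc-/- livers 0 of 26 were called by edgeR or limma and 1 by DESeq2, with 5 at an unadjusted p under 0.05.

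Of the 11 MAPK feedback inhibitors, Dusp16, a JNK phosphatase gene, was lower with shChREBP in L-G6pc+/+ livers (-0.68, SE 0.17, adjusted p = 0.0138 from edgeR) and no other call was made by edgeR in any comparison. DESeq2 called 1 and limma 0 between the shSCR groups, with 2 at an unadjusted p under 0.05, with shChREBP in L-G6pc-/- livers DESeq2 called 0 and limma 1, with 1, and between shChREBP/L-G6pc-/- and shSCR/L-G6pc+/+ livers each called 0, with 0. Of 7 other KLF genes, Klf9 (-0.72, SE 0.19, adjusted p = 0.0103 from edgeR) and Klf13 (-0.67, SE 0.18, adjusted p = 0.0112) were lower and Klf11 higher (0.93, SE 0.30, adjusted p = 0.0345) in shChREBP/L-G6pc-/- than in shSCR/L-G6pc+/+ livers. The Klf11 call was lost without s2, s3, s4, s5, s6, s25, s27 or s28 (adjusted p from 0.0515 to 0.0788). None of the 3 passed without s29, s30, s32 and s33, where Klf9 was at -0.53 (adjusted p = 0.256), Klf13 at -0.49 (0.264) and Klf11 at 1.16 (0.0505). No KLF gene other than Klf6 and Klf10 was called in the other comparisons by edgeR, DESeq2 or limma, where 4 of the 7 between the shSCR groups, 0 with shChREBP in L-G6pc+/+ and 1 with shChREBP in L-G6pc-/- livers had an unadjusted p under 0.05.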

How the data were processed

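Hepatic RNA of 33 mouse libraries was sequenced by 3' QuantSeq and grouped by genotype and hairpin as the labels give them. The authors' raw counts per gene, as deposited, come from HTSeq on reads of 50 bases that HISAT had aligned to GRCm38 (Ensembl release 82) and SAMtools had sorted. They also deposited a signal table made with voom of limma, whose values are linear, (count + 0.5) divided by a constant per library. Versions are not given in the sources used here. Each column was mapped to a sample, and 0 columns were left unmapped.

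Counts were analysed with edgeR 4.0.16, limma 3.58.1 and DESeq2 1.42.0 in R 4.3.3 and with Python 3.11.15, numpy 2.4.6, scipy 1.17.1 and pandas 2.3.3. Genes were named from GENCODE M21. filterByExpr (minimum count 10, minimum total 15) kept 10179 of 25988 genes, which were TMM-scaled and fitted with edgeR's quasi-likelihood test over all 4 groups. Adjusted p is Benjamini-Hochberg over all genes tested, two-sided, with calls under 0.05. CPM are counts divided by the TMM-scaled library total, and log2 CPM for correlations used a prior count of 2. Correlations were tested by 100000 permutations within groups. The test was checked on simulated counts. No library pair of one group agreed within sampling noise (chi-square per gene 4.50 to 22.9 over 120 pairs).

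Members and lists were chosen with earlier results of these data known. Named were the 10 members, up to 4 called genes with the smallest p per pathway list and comparison, any gene that a count of 5 or fewer refers to, the genes most like each member, and Mlxipl, G6pc and Pklr. Further genes singled out (Cd44, Vim and the marker genes) were named after their values were seen. Alternatives were RLE size factors, library size alone, no filter, DESeq2, limma-voom, limma on the log2 of the deposited signal, only the compared groups, and leaving out s29, s30, s32 and s33, s9 and s13, or each library. Fits of Myc without s30, or without the 4 libraries, and of the marker lists without those 4, were chosen after seeing the data. The 4 libraries were themselves picked from the first principal component of these data. Libraries s9 and s13 are the highest of their group on it, at 19.8 and 21.2. Promoters are from RefSeq (GRCm38.p6).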

Additional observations from a re-analysis of the deposited data

Results flagged for a closer look

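In 45 genes the highest and lowest library of each group were compared with the rest of their group, and 5 of 180 groups held a library far from the others, where chance alone gives about 1 in 20. Egr1 was at 62.7 CPM in the shChREBP/L-G6pc+/+ library s9, far below the next lowest at 301 CPM. Nr4a2 was at 6.56 CPM in the shSCR/L-G6pc+/+ library s7, above the next highest at 3.18 CPM. Ccnd1 was at 304 CPM in the shChREBP/L-G6pc+/+ library s14, above the next at 217 CPM. Lgals3 was at 4.53 CPM in the shChREBP/L-G6pc-/- library s27, below the next lowest at 13.4 CPM. Maf was at 387 CPM in the shChREBP/L-G6pc-/- library s31, above the next at 297 CPM. Their causes were not tested.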

How the results depend on the processing

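No value past the threshold changed direction under any alternative. Values of members that had not passed did: besides the changes without single libraries given above, Junb with shChREBP in L-G6pc-/- livers was at 0.01 with limma-voom and on the deposited values, Atf3 for shChREBP/L-G6pc-/- against shSCR/L-G6pc+/+ livers went from -0.25 to 0.41 and 0.34 with these and to 0.36 without s7, and Jun there from -0.22 to 0.09 without s6. Jun with shChREBP in L-G6pc+/+ livers went to -0.01 without the low-count filter, and Ier3 there to -0.16 without s9 and s13. For the difference between genotypes Fos went from -0.15 to 0.15 without s15, and Ier3 from 0.12 to -0.03 without s18 and to -0.09 without s29, s30, s32 and s33. For shChREBP in L-G6pc+/+ livers the count of called members went from 1 to 0 without the low-count filter, with only the compared groups and without s9 and s13. For shChREBP in L-G6pc-/- livers it went from 1 to 2 with only the compared groups and to 0 without s29, s30, s32 and s33, and for shChREBP/L-G6pc-/- against shSCR/L-G6pc+/+ livers from 2 to 1 without those 4. Without them the genes called in these last comparisons went from 770 to 106 and from 1347 to 321, and fewer samples enter that fit. Genes called for the difference between genotypes went from 8 to 33 with library size alone, 73 with DESeq2, 4 with limma-voom, 4 with limma on the deposited values, 37 without s29, s30, s32 and s33 and 19 without s9 and s13, and the cause was not tested. With library size alone the share of called genes that were higher went from 68.1% to 57.6% between the shSCR groups, from 51.9% to 68.2% between shChREBP/L-G6pc-/- and shSCR/L-G6pc+/+ livers and from 75.0% to 90.9% for the difference between genotypes.

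Besides the calls already given as lost, these ended under other settings. Without the low-count filter Eif4e, Maf, Jdp2, Vim, Ccnd2, Cdk4, Elk4 and Mrtfb lost a call, with only the compared groups Ier2, Eif4e, Mafg, Sesn2, Jdp2 and Cdk4, with library size alone Eif4e, Map2k4 and Elk4, with limma on the deposited values Ier2, Fgf21, Mafk and Mrtfb, with limma-voom Nr4a2, Sik1, Ier2, Eif4e and Mrtfb, and without s9 and s13 Eif4e and Mafg. With RLE size factors and DESeq2 all 91 values of the tested members and of the genes called in a list kept their direction and their side of the threshold.

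Leaving out each library in turn gave 261 to 350 genes called between the shSCR groups, 316 (without s2) to 626 with shChREBP in L-G6pc+/+ livers, 531 to 887 with shChREBP in L-G6pc-/- livers, 4 (without s2) to 16 (without s10) for the difference between genotypes and 997 to 1407 for shChREBP/L-G6pc-/- against shSCR/L-G6pc+/+ livers. Called members ran from 0 to 1 with shChREBP in L-G6pc+/+ livers and from 1 to 2 for shChREBP/L-G6pc-/- against shSCR/L-G6pc+/+ livers, and stayed at 0, 1 and 0 in the other comparisons. Of 50 calls named, 19 ended without some single library. No paired analysis was possible because the labels number the libraries s1 to s33 and the groups share no number.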
